A study of Mus musculus with 24 samples.

Results

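Acta1 encodes the alpha actin of skeletal muscle and Actc1 the alpha actin of heart muscle. Both genes were chosen from the levels of their probe sets in the groups described here, so their levels and differences are given as a description with no test. They are 2 of the 8252 genes that have a probe set with a single annotated symbol on the array. They hold 3 of the 10855 such probe sets, 1 for Acta1 (100381_at) and 2 for Actc1 (101028_i_at and 101029_f_at), and each probe set is given apart.

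The data were 24 Affymetrix U74Av2 arrays of mouse adipocytes in primary culture. The groups were brown adipocytes at day 7 (n = 5 arrays), brown adipocytes at day 4 (n = 5), white adipocytes at day 7 (n = 6) and white adipocytes at day 4 (n = 8), where the labels call day 7 differentiated and day 4 not differentiated. No strain, age, genotype or treatment agent is named in the labels, and they leave unsaid whether separate animals or cultures gave rise to each array, so p-values measure the spread among arrays, possibly a technical one. The label numbers of the brown arrays all come before those of the white arrays, so handling and cell type cannot be told apart.

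Values are MAS5 signal intensities on a linear scale, with every array brought to a 2% trimmed mean of 150. For differences, signals under a floor of 8.21 were raised to it before taking log2. Median signal per array lay between 41.9 and 59.0, and the number of arrays limits the precision. The cell type labels were checked against markers. The 6 brown adipocyte markers summed to 438 to 2034 in brown day 7, 337 to 670 in brown day 4, 51.5 to 74.9 in white day 7 and 33.5 to 104 in white day 4. Of them Ucp1, Dio2 and Ppargc1a did not pass the filter on low signals, and Dio2 averaged 10.8 in brown day 7 against 19.7 in white day 7. The 6 white adipocyte markers did not separate the groups by their sum, which was 596 to 903, 492 to 1764, 756 to 1067 and 853 to 1185 in the same order. Among them Tcf21 averaged 8.99 in brown day 7 against 316 in white day 7, whereas Nnat averaged 732 in brown day 4 against 45.5 in white day 4 and Lep 243 against 239. Zic1, a transcription factor of the brown lineage, had signals of 58.4 to 119 on the brown arrays and lay at the floor on each of the 14 white arrays. Adipoq, the adipocyte hormone adiponectin, averaged 5544 in brown day 7, 2723 in brown day 4, 5643 in white day 7 and 2048 in white day 4. Ucp1, the uncoupling protein that defines the mature brown adipocyte, averaged 65.4 in brown day 7 and 19 in brown day 4.

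Actin monomers assemble into filaments. In striated muscle, thin filaments of alpha actin carry tropomyosin and the troponin complex, and slide along thick filaments of myosin. Acta1 is the main actin of adult skeletal muscle, whereas Actc1 is the main actin of the heart and is also made in developing skeletal muscle. Acta2 and Actg2 encode smooth muscle actins, and Actb and Actg1 encode the cytoplasmic actins that nearly all cells make. Striated muscle actin genes are known targets of serum response factor, which binds the CArG box, and of myogenic bHLH and TEAD factors, which bind the E-box and the MCAT motif. Brown adipocytes and skeletal muscle share an embryonic origin.

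The regions before the starts of both genes are shown with the motifs of the regulators described further on, where these were present. Each is the 250 bases before the RefSeq start on the minus strand of GRCm38.p6, at chr8:123894776-123895025 for Acta1 and chr2:114052876-114053125 for Actc1. Capitals mark the CArG box and, where present, E-boxes (CANNTG), the MCAT motif (CATTCC) and TATAAA, all searched on both strands.
Acta1: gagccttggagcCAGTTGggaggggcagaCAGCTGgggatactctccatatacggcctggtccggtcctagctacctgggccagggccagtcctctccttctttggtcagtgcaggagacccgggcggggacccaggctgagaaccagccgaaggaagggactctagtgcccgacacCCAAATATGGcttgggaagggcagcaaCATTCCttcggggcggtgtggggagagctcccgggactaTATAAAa
Actc1: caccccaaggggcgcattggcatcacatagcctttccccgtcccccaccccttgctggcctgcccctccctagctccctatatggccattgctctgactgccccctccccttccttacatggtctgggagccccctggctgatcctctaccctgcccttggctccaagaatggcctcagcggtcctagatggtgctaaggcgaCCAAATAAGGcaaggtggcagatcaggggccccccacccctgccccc
Acta1 had a CArG box at positions -73 to -64 from the start, E-boxes at -238 to -233 and -221 to -216, an MCAT motif at -46 to -41 and TATAAA at -7 to -2. Actc1 had a CArG box at -47 to -38, and the letters of the other 3 motifs were not in its window. In Actc1, TATAAA begins 34 bases after the annotated RefSeq start, outside the window shown, so the windows of the 2 genes do not cover the same stretch around it. Among 32851 RefSeq windows of the same length, 1.47% held a CArG box, 66.2% an E-box, 12.6% the MCAT motif and 12.4% TATAAA. These matches describe the letters only.

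Acta1 was brightest in brown day 4 cultures and dimmest in white day 4 cultures. Its signal was 205, 115, 208, 195 and 283 in brown day 7 (arrays 07, 08, 11, 12 and 22), against 633, 440, 398, 738 and 702 in brown day 4 (arrays 05, 06, 09, 10 and 19). Every brown day 7 array lay below every brown day 4 array. In white day 7 the lowest, median and highest signals were 73.0, 104 and 147, against 16.5, 57.7 and 86.0 in white day 4. These groups overlapped through white day 4 arrays 38 and 45, which lay above the lowest white day 7 array. Array 34 of white day 4, with the lowest signal, was the only array on which Acta1 did not lie above the 40th percentile of its own array.

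The group means of Acta1 were 201 ± 59.7 in brown day 7 (SD, n = 5), 582 ± 154 in brown day 4 (n = 5), 106 ± 27.1 in white day 7 (n = 6) and 53.4 ± 22.6 in white day 4 (n = 8). In bulk arrays such as these, fewer cells of a type and less RNA per cell cannot be told apart. From highest to lowest, the order was thus brown at day 4 then day 7, and white at day 7 then day 4. Of the neighbours in this order, brown day 4 and brown day 7 did not overlap. Brown day 7 overlapped white day 7, since brown array 08 lay below white arrays 39 and 40.

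**Figure D1:**
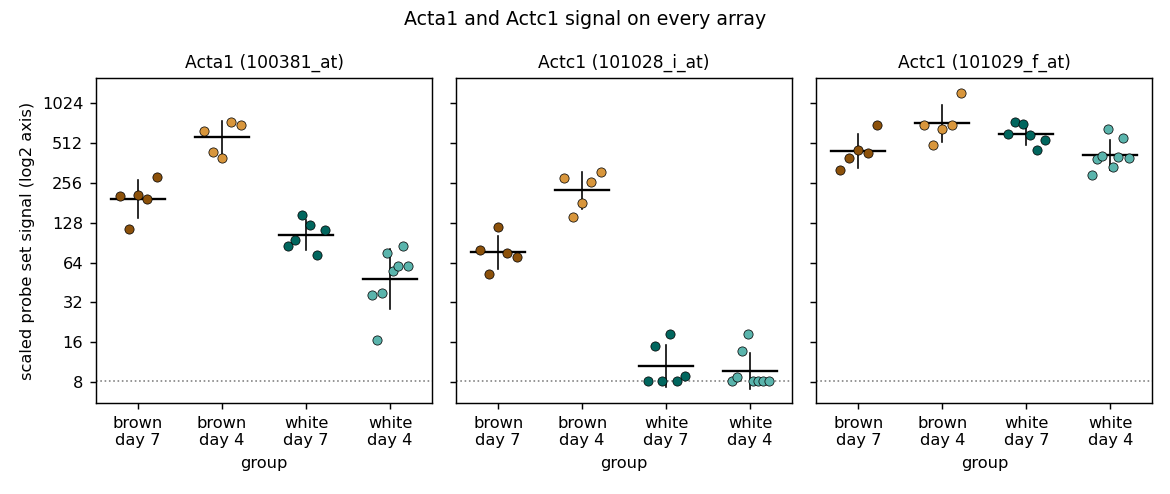
Signal of the 3 probe sets of Acta1 and Actc1 on each of the 24 arrays (vertical log2 axis, signal after scaling and the floor), by group. Points are arrays, horizontal bars the mean of log2 values, vertical bars 1 SD and the dotted line the floor. Acta1 and 101028_i_at are highest in brown day 4, and 101029_f_at spans similar levels in all 4 groups.

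The first Actc1 probe set, 101028_i_at, was detected in brown cultures and lay near or below the floor in white cultures. The suffix i marks a set with fewer unique probes than the design asked for. Its signal was 80.3, 52.7, 118, 75.1 and 70.4 in brown day 7, against 277, 142, 182, 261 and 308 in brown day 4, in the array order given for Acta1. All brown day 7 arrays were again below all brown day 4 arrays. The lowest, median and highest signals were 0.450, 8.04 and 18.6 in white day 7, and 0.410, 5.53 and 18.4 in white day 4. No white array reached the lowest brown array, 3 of the 6 white day 7 arrays and 5 of the 8 white day 4 arrays were at the floor, and the white groups covered the same range.

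The means of 101028_i_at were 79.3 ± 24 in brown day 7, 234 ± 69.2 in brown day 4, 9.19 ± 6.62 in white day 7 and 7.01 ± 6.49 in white day 4 (SD; n = 5, 5, 6 and 8). The order was the same as for Acta1, with the white groups not separated beyond their spread. The probe set lay above the 40th percentile of its array on all 10 brown arrays and on 0 of 14 white arrays, so it passed the filter through the brown arrays alone.

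The other Actc1 probe set, 101029_f_at, gave a different picture. The suffix f marks a sequence family, so its probes may bind other actin transcripts. Its signal was 320, 394, 457, 429 and 705 in brown day 7, against 707, 495, 654, 700 and 1219 in brown day 4. Brown day 7 array 22 lay above brown day 4 arrays 06, 09 and 10, so these groups overlapped. In white day 7 the lowest, median and highest signals were 451, 593 and 734, against 295, 398 and 653 in white day 4. The means were 461 ± 146 in brown day 7, 755 ± 273 in brown day 4, 604 ± 108 in white day 7 and 430 ± 119 in white day 4 (SD). From highest to lowest mean, every neighbouring pair overlapped. In white cultures this probe set was bright on all arrays while 101028_i_at was dim, so the level of Actc1 there depends on which probe set is read.

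The differences between groups are log2 differences with standard errors from the fit across all probe sets. Brown day 7 minus brown day 4 was -1.55 ± 0.32 for Acta1, -1.55 ± 0.31 for Actc1 101028_i_at and -0.70 ± 0.22 for Actc1 101029_f_at. Over all 8397 probe sets tested in that comparison, 12.1% passed the threshold (adjusted p under 0.05, limma) and 5.31% had all brown day 7 arrays below all brown day 4 arrays, as Acta1 and 101028_i_at did. White day 7 minus white day 4 was 1.10 ± 0.28 for Acta1, 0.11 ± 0.26 for 101028_i_at and 0.52 ± 0.19 for 101029_f_at. In that comparison 19% of probe sets passed the threshold and 2.23% were higher on every day 7 array, which none of the 3 probe sets was. Nothing is read from these shares, because both genes were chosen from the same comparisons.

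Brown minus white at day 7 was 0.91 ± 0.31 for Acta1, 2.86 ± 0.30 for 101028_i_at and -0.42 ± 0.21 for 101029_f_at. Of all probe sets, 25.2% passed the threshold at day 7 and 8.71% were higher on every brown array, which 101028_i_at was and Acta1 was not. Brown minus white at day 4 was 3.55 ± 0.29 for Acta1, 4.52 ± 0.28 for 101028_i_at and 0.79 ± 0.20 for 101029_f_at. At day 4, 23% passed the threshold and 3.32% were higher on every brown array, as both Acta1 and 101028_i_at were. The size for 101028_i_at depends on the floor: with no floor it was 5.80 at day 4 and 3.71 at day 7, and under a floor at the 40th percentile 2.96 and 1.40. The comparisons by day and by cell type share arrays, so these values stand side by side and are not independent.

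The means of Acta1 and of 101029_f_at were lower at day 7 than at day 4 in brown cultures and higher at day 7 in white cultures, a difference that was not tested. The day 7 minus day 4 change in brown minus that in white was -2.64 ± 0.42 for Acta1, -1.66 ± 0.41 for 101028_i_at and -1.21 ± 0.29 for 101029_f_at. Over all probe sets 0.214% passed the threshold for this difference, and 0.0238% had a larger one in size than Acta1, from which again nothing is read. Consecutive label numbers were also cut into runs that hold both days, a cut that the labels do not mark as batches. Arrays 19, 22, 45 and 51 were left to stand alone. A fit with the runs as a block therefore draws no change by day from them. In brown arrays 05 to 08 Acta1 averaged 160 at day 7 against 537 at day 4, and in arrays 09 to 12 it averaged 201 against 568. In white arrays 33 to 36, 37 to 40 and 41 to 44 it averaged 90.0, 135 and 93.2 at day 7 against 26.4, 56.5 and 57.8 at day 4, so each run had the direction of its cell type.

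**Figure D2:**
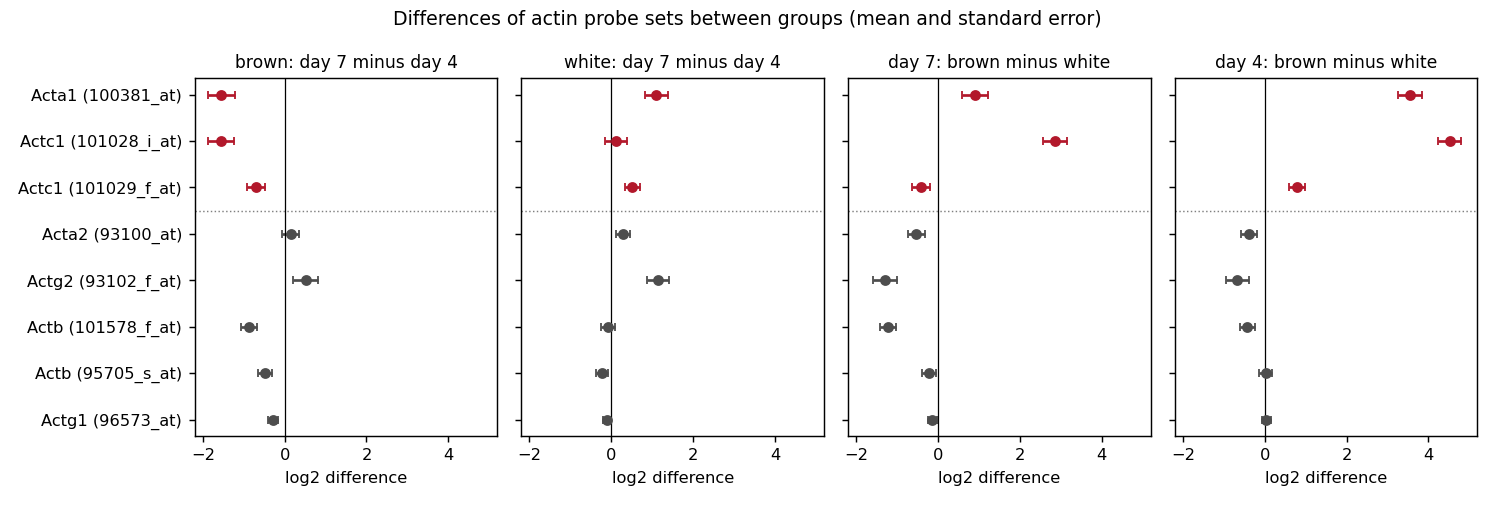
Log2 differences of the Acta1, Actc1 and other actin probe sets in the comparisons by day and by cell type; points are differences and bars their standard errors. Acta1 and 101028_i_at have large positive brown minus white differences at day 4 (3.55 and 4.52), while the other actins lie near or below 0 there.

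Measures of RNA quality moved with white day 7. The ratio of the Gapdh 3' to the Gapdh 5' control probe set was 0.889 ± 0.0379 in brown day 7, 0.884 ± 0.0825 in brown day 4, 1.36 ± 0.204 in white day 7 and 0.943 ± 0.0955 in white day 4 (SD). The same ratio of the Actb control probe sets was 1.61 ± 0.206, 1.47 ± 0.137, 2.38 ± 0.296 and 1.56 ± 0.186 in that order, and was not used in a fit. With the log2 of the Gapdh ratio as a covariate in the fit, the white day 7 minus day 4 difference of Acta1 was 1.70 ± 0.45 and its brown minus white difference at day 7 was 0.21 ± 0.52. The part of either ratio in these differences was not tested otherwise.

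The 4 other actin genes had 5 probe sets, all tested by limma with adjustment over all 8397 probe sets. None was called higher in brown than in white at either day. Actg1 (96573_at), a cytoplasmic actin, averaged 5210 ± 664 in brown day 7, 6401 ± 1146 in brown day 4, 5737 ± 444 in white day 7 and 6155 ± 582 in white day 4 (SD), and passed no comparison with all arrays and no block (the adjusted p-values ran from 0.112 upwards). With runs of array numbers as a block, Actg1 was at -0.27 for brown by day (adjusted p = 0.0287). Acta2 (93100_at), the vascular smooth muscle actin, averaged 2064 ± 543, 1836 ± 326, 2927 ± 483 and 2482 ± 807 in the same order, and its brown minus white difference at day 7 was -0.53 ± 0.20 (adjusted p = 0.0540). That difference passed without brown day 7 array 22 (adjusted p = 0.0209), without white day 7 array 44 (adjusted p = 0.0426) and after quantile normalization (adjusted p = 0.00962). With runs as a block, Acta2 was at 0.46 for white by day (adjusted p = 0.0115). Actg2 (93102_f_at), the enteric smooth muscle actin, averaged 361 ± 114 in brown day 7, 249 ± 57.2 in brown day 4, 919 ± 354 in white day 7 and 417 ± 183 in white day 4.

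Actg2 rose in white cultures by day, with a log2 difference of 1.14 ± 0.26 (adjusted p = 0.00347), and was lower in brown than in white cultures at day 7, at -1.30 ± 0.29 (adjusted p = 0.00184). With the Gapdh ratio in the fit the values were larger and so were their standard errors, at 1.40 ± 0.45 (adjusted p = 0.154) and -1.59 ± 0.51 (adjusted p = 0.0876), and neither was called. Actb, the other cytoplasmic actin, had 2 probe sets, of which 1 passed. Its family probe set 101578_f_at fell in brown cultures by day, at -0.87 ± 0.21 (adjusted p = 0.00543), and was lower in brown than in white at day 7, at -1.22 ± 0.20 (adjusted p = 4.70e-05, but -0.91 ± 0.34 and 0.150 with the Gapdh ratio in the fit). Its probe set 95705_s_at gave -0.47 ± 0.18 (adjusted p = 0.0792) and -0.22 ± 0.17 (adjusted p = 0.368) in these comparisons. With runs of array numbers as a block, 95705_s_at was at -0.73 for brown by day (adjusted p = 0.000536), so both probe sets were then called lower. In that fit the block and the loss of arrays 19 and 22, which stood alone, cannot be told apart.

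In all, 1 of the 5 probe sets passed for brown day 7 minus day 4, 1 for white day 7 minus day 4, 2 for brown minus white at day 7 and 0 for brown minus white at day 4, where 3 had an unadjusted p under 0.05. Over all probe sets 12.1%, 19%, 25.2% and 23% passed in the same order, so nothing is read from counts among only 5. The call of 0 at day 4 rests on single arrays: without brown day 4 array 19, Actb 101578_f_at passed at -0.58 (adjusted p = 0.0234), and without white day 4 array 33, Actg2 passed at -0.79 (adjusted p = 0.0351). In brown cultures by day, Actb 95705_s_at also passed without any 1 of arrays 06, 19 and 22 (adjusted p = 0.0435, 0.0293 and 0.0178), and so did Actg1 without array 06 or array 22 (adjusted p = 0.0454 and 0.0439). For the difference between the changes by day in brown and white, 0 of 5 passed, against 0.214% of all probe sets, and 1 had an unadjusted p under 0.05.

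**Figure D3:**
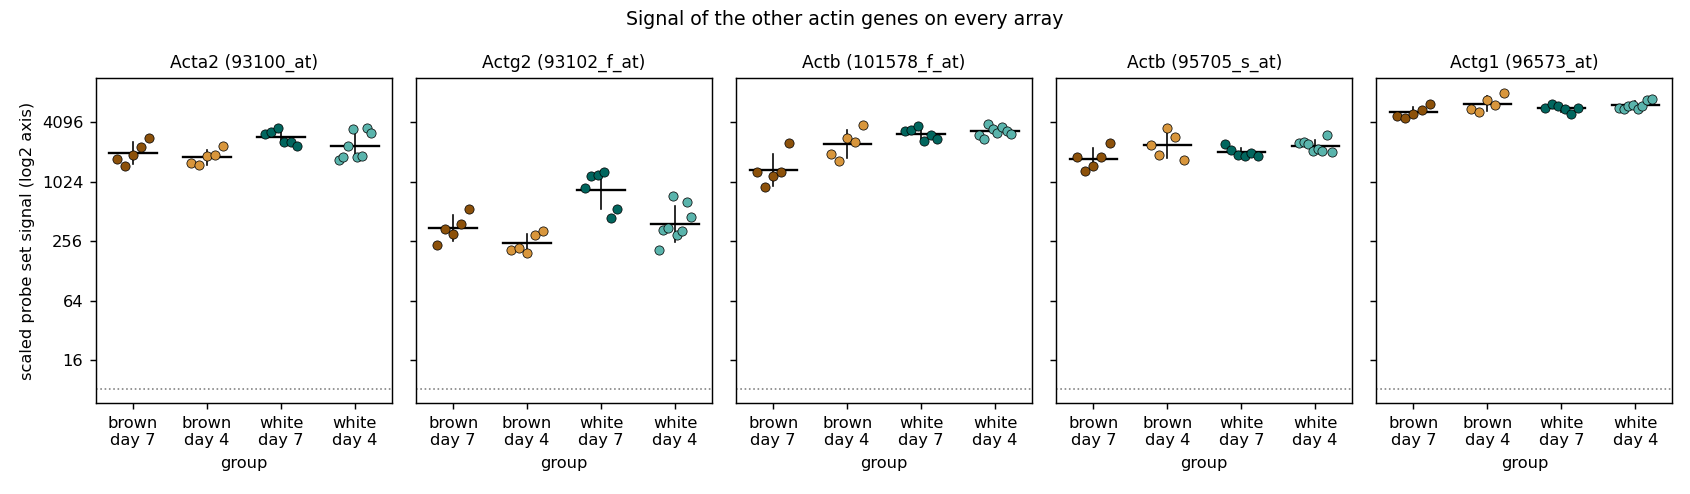
Signal of the 5 probe sets of Actg1, Acta2, Actg2 and Actb on each array (vertical log2 axis), by group, drawn as for Acta1 and Actc1. Actg1 is nearly level across groups, and Actg2 is highest in white day 7, where it averaged 919.

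Correlations among the actin probe sets over both days differed between brown and white arrays. For several pairs they differed less by deviations from the group means, which leave out the step between days. Over the 10 brown arrays the Pearson correlation of log2 signal between Acta1 and 101028_i_at was 0.94, and between Acta1 and 101029_f_at it was 0.79. Over the 14 white arrays these values were 0.19, with 101028_i_at at the floor on 8 arrays, and 0.74. The family probe set 101029_f_at correlated with Actg2 at 0.10 in brown and 0.95 in white, with Acta2 at 0.42 and 0.82, and with Actg1 at 0.91 and 0.17. By deviations from the group means it correlated with Actg2 at 0.81 in brown and 0.91 in white, with Acta2 at 0.81 and 0.82, and with Actg1 at 0.86 and 0.59. Acta1 correlated with Actb 101578_f_at at 0.83, Actg1 at 0.71 and Actg2 at -0.34 over the brown arrays, and with Actg2 at 0.77 and Acta2 at 0.65 over the white arrays. By deviations, Acta1 correlated with Actg2 at 0.53 in brown and 0.56 in white, and with Acta2 at 0.70 and 0.59. With 101028_i_at it was then at 0.69 in brown and 0.15 in white. The probe set 101028_i_at correlated with Actb 101578_f_at at 0.72 and Actg1 at 0.66 over the brown arrays. All pairs share the array, its scaling and the day, so these correlations are a description. Whether the family probe set binds those transcripts was not tested.

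**Figure D4:**
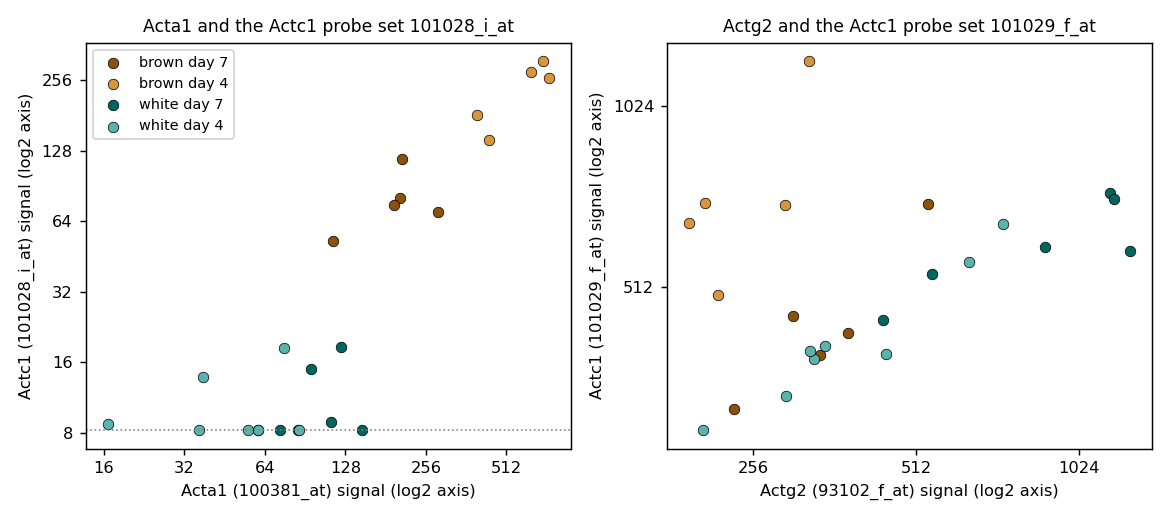
Pairs of actin probe sets plotted against each other, 1 point per array (both axes log2 signal), coloured by group. Acta1 and 101028_i_at run together over the brown arrays (r = 0.94), and 101029_f_at runs with Actg2 over the white arrays (r = 0.95).

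The genes whose log2 signal was most like that of Acta1 over all 24 arrays, among 6279 genes, were mainly striated muscle genes. They were the troponin genes Tnni1 (r = 0.90), Tnnc1 (0.88), Tnnt3 (0.85) and Tnnt2 (0.84), the myosin binding protein gene Mybph (0.84), the transcription factor genes Zic1 (0.83) and Lhx8 (0.81), and the myogenic factor gene Myog (0.80). Within the 10 brown arrays, Mybph (0.90) and Myog (0.85) remained close to Acta1, while Zic1 was at 0.49 and Lhx8 at 0.39. Within the 14 white arrays, Tnni1 was at 0.72 and Mybph at 0.10. These values reflect the group levels. By deviations from the group means, which leave the group levels out, the closest genes were Tmem97 (0.80), Pcbp1 (0.80), Smim7 (0.79), Abhd14a (0.79) and Sec13 (0.79), none of them a sarcomere gene.

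For Actc1 the rule took the brighter probe set, 101029_f_at. Its closest genes were Babam2 (0.65), Ptms (0.63), Pde6g (0.61), Rapsn (0.59), Orm3 (0.59), Actg1 (0.58), Adssl1 (0.57) and Serpinf2 (0.57), so no gene was as like it as Tnni1 was like Acta1. By deviations from the group means they were Csrp1 (0.83), Cnn2 (0.82), Actg2 (0.82), Trip6 (0.81) and Acta2 (0.79). Csrp1 and Cnn2 encode proteins bound to the actin cytoskeleton. The dimmer probe set, added after its values were seen, was most like Tnnc1 (0.96), Zic1 (0.95), Tnnt3 (0.94) and Lhx8 (0.92) over the 24 arrays, 8 of which had it at the floor. These values reflect the gap between brown and white levels. Within the 10 brown arrays the same genes were at 0.71, 0.56, 0.46 and 0.37. By deviations from the group means its closest genes were Sdc1 (0.73), Ager (0.73), Itgb5 (0.68), Fmod (0.65) and Srcap (0.63), none of them a sarcomere gene.

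The gene lists that follow were chosen with earlier results of these data known. Their shares called and adjusted p-values are therefore given as a description. Among 17 tested thin filament genes, the proteins that sit on or cap actin filaments, brown cultures were higher than white at day 4 in 5 and lower in 2, so that 41.2% were called against 23% of all probe sets. Tnnc1, the calcium-binding troponin C of slow muscle and heart, averaged 88.2 in brown day 7, 154 in brown day 4, 8.79 in white day 7 and 4.28 in white day 4. All 8 white day 4 arrays were at the floor, so at day 4 it was at least 17.7-fold higher in brown (log2 difference 4.15 ± 0.24, adjusted p = 9.10e-13). Tnni1, the slow muscle inhibitory troponin, averaged 439 ± 66.5 in brown day 4 and 83.4 ± 33 in white day 4 (SD), a log2 difference of 2.57 ± 0.31 (adjusted p = 1.01e-06). Tnnt3 and Tnnt2, the troponins that bind tropomyosin, were higher in brown by 1.93 ± 0.28 (adjusted p = 1.24e-05) and 1.62 ± 0.22 (adjusted p = 7.41e-06), with Tnnt3 at the floor on 5 of the 8 white day 4 arrays.

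At day 7 the thin filament list had 3 genes higher in brown and 2 lower, or 29.4% called, near the 25.2% of all probe sets. Tnnc1 was higher in brown by 3.04 ± 0.26 (adjusted p = 2.07e-09), Tnni1 by 1.59 ± 0.33 (adjusted p = 0.000858) and Tnnt3 by 1.55 ± 0.29 (adjusted p = 0.000317). With the Gapdh ratio in the fit Tnni1 was at 1.33 ± 0.58 and Tnnt3 at 1.23 ± 0.51 and neither was called (adjusted p = 0.237 and 0.206), and under a floor at the 40th percentile Tnnt3 was at 0.03. By day in brown cultures, Tnnc1 was at -0.77 ± 0.27, just short of the threshold (adjusted p = 0.0617). It passed without brown day 4 array 19 (adjusted p = 0.0328), without brown day 7 array 11 (0.0434), with no filter (0.0439), after quantile normalization (0.0390), with the Gapdh ratio in the fit (0.0409) and under a floor at the 40th percentile (0.00838), where Tnnt2 and Tnnt3 passed too (0.0404 and 0.00604). Tnni1 was at -0.54 ± 0.35 (adjusted p = 0.356). The only call among 17 in brown by day, where 12.1% of all probe sets were called, was Fhl1, a muscle LIM domain protein, which rose by 0.82 ± 0.16 (adjusted p = 0.00158). In white cultures by day 2 rose and 2 fell, or 23.5% called, near the 19% of all probe sets. Fhl1 rose there by 0.97 ± 0.14 (adjusted p = 7.95e-05) and Tnnc2, a troponin C of fast muscle, by 1.09 ± 0.33 (adjusted p = 0.0226, but 0.0596 without white day 7 array 40). Actn3, an actin cross-linker of fast fibres, was at -1.27 ± 0.40 (adjusted p = 0.0282, but 0.0954 without white day 7 array 39 and 0.0936 without array 40). Capzb was at -0.58 ± 0.11 (adjusted p = 0.000726). With the Gapdh ratio in the fit none of the 4 was called: Fhl1 was at 0.73 (adjusted p = 0.154), Tnnc2 at 0.79 (0.627), Capzb at -0.32 (0.488) and Actn3, though larger, at -1.59 (0.336). The medians over the 17 genes were -0.16 for brown by day, 0.04 for white by day, -0.07 for brown minus white at day 7 and -0.08 at day 4, against 0.01, 0.01, 0.00 and 0.01 over all probe sets.

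Of 9 tested thick filament genes, 4 were higher in brown at day 4 and 1 lower, and 4 were higher at day 7. That is 55.6% called at day 4 against 23% of all probe sets, and 44.4% at day 7 against 25.2%. Of the day 7 calls, Mybph and Myl4 were lost with the Gapdh ratio in the fit (adjusted p = 0.456 and 0.460). The gene lower at day 4 was Tcap, at -1.44 ± 0.49 (adjusted p = 0.0344). That call was lost with no filter (0.0702), after quantile normalization (0.0530) and under a floor at the 40th percentile (0.0755). Myl1, an alkali light chain of fast muscle myosin, averaged 362 ± 38 in brown day 7, 276 ± 93.4 in brown day 4, 56.8 ± 6.03 in white day 7 and 22.3 ± 9.74 in white day 4 (SD). Its brown minus white log2 difference was 2.67 ± 0.27 at day 7 (adjusted p = 5.60e-08) and 3.69 ± 0.25 at day 4 (adjusted p = 2.83e-11). Myl1 also rose by day in white cultures, by 1.47 ± 0.24 (adjusted p = 0.000235), the only call of the list there. Mylpf, the regulatory light chain of fast muscle, was higher in brown by 1.55 ± 0.21 at day 7 (adjusted p = 4.42e-06) and 1.81 ± 0.20 at day 4 (adjusted p = 1.47e-07). Mybph was higher in brown by 2.19 ± 0.24 at day 4 (adjusted p = 1.59e-07). It was the only member called by day in brown cultures, at -0.83 ± 0.27 (adjusted p = 0.0390), a call lost without any 1 of 7 brown arrays (adjusted p up to 0.119 without array 08) and with no filter on low signals (adjusted p = 0.0566). The list's medians were -0.04, 0.09, 0.34 and 0.07 in the order of comparisons given for thin filaments.

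**Figure D5:**
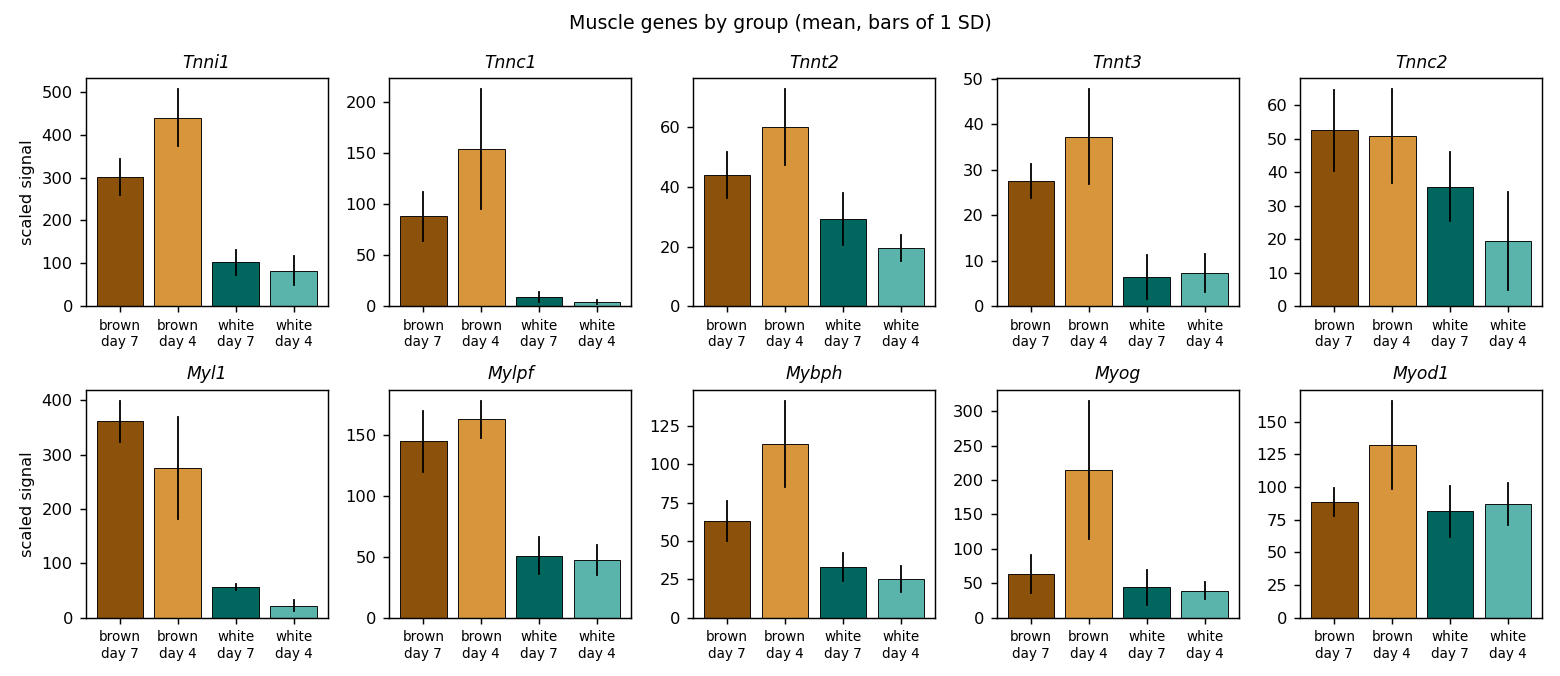
Mean scaled signal (linear vertical axis from 0) of 10 thin filament, thick filament and regulator genes in the 4 groups, with vertical lines of 1 SD over arrays. Tnnc1 (88.2 and 154) and Myl1 (362 and 276) are higher in both brown groups than in both white groups.

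Of the 13 tested genes of muscle excitation and metabolism, 2 rose by day in brown cultures. That is 15.4% called, near the 12.1% of all probe sets. Both genes are also known from brown fat. Cox8b, a subunit of cytochrome c oxidase, rose by 2.68 ± 0.44 in brown (adjusted p = 0.000292) and by 2.05 ± 0.37 in white cultures (adjusted p = 0.000579), where with the Gapdh ratio in the fit it was about as large, at 1.94 ± 0.65, but not called (adjusted p = 0.171). Mb, the oxygen-binding myoglobin, rose by 1.90 ± 0.46 in brown (adjusted p = 0.00621). At day 4, Cav3, the caveolin of striated muscle, was higher in brown by 1.73 ± 0.36 (adjusted p = 0.000944). The brown minus white comparison had 3 genes higher and 3 lower at day 7 and 3 higher and 1 lower at day 4. That is 46.2% called at day 7 against 25.2% of all probe sets, and 30.8% at day 4 against 23%. The day 7 calls were Mb, Cox8b and Cav3, higher in brown, and Atp2a2, Des and Eno3, lower. All 6 were lost with the Gapdh ratio in the fit (adjusted p from 0.0519 for Eno3 to 0.560 for Cav3), though each kept its direction. Cav3 was also lost when single arrays were left out, such as white day 7 array 44 (adjusted p = 0.116). The list's medians were 0.42 at day 7 and 0.31 at day 4, against 0.00 and 0.01 over all probe sets.

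The regulators of muscle actin genes had 14 tested members. Myog, the myogenic bHLH factor of differentiating muscle cells, averaged 63.5 ± 27.4 in brown day 7, 215 ± 101 in brown day 4, 44.1 ± 25.3 in white day 7 and 39.5 ± 11.7 in white day 4 (SD). It fell by day in brown cultures by 1.72 ± 0.35 (adjusted p = 0.00186), was higher in brown at day 4 by 2.34 ± 0.32 (adjusted p = 5.84e-06) and at day 7 differed by 0.57 ± 0.34 (adjusted p = 0.231). Myod1, the related factor of myoblasts, was higher in brown at day 4 by 0.59 ± 0.18 (adjusted p = 0.0153, but 0.0602 without brown day 4 array 19). In white cultures Myog was at 0.05 by day (adjusted p = 0.939). Mef2a, also on the list, went the other way by day in brown, with means of 98.8 ± 31.5 in brown day 7 and 43.7 ± 8.16 in brown day 4 (SD). Six4 averaged 52.6 in brown day 4 against 25.7 in white day 4, and 40.8 against 21.6 at day 7. It was called higher in brown at day 4 and at day 7, but at neither with no filter (adjusted p = 0.0523 and 0.0668).

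Mrtfa, a coactivator of serum response factor, ran the other way, lower in brown than in white at -0.91 ± 0.17 at day 7 (adjusted p = 0.000236, and at -0.94 ± 0.30 but not called with the Gapdh ratio in the fit, adjusted p = 0.0791) and -0.65 ± 0.16 at day 4 (adjusted p = 0.00355). Tead2, a TEAD factor, was lower in brown at day 4, at -0.66 ± 0.19 (adjusted p = 0.0138). Id1, an inhibitor of bHLH factors, fell by day in both, with log2 differences of -0.91 ± 0.17 in brown (adjusted p = 0.00073) and -1.26 ± 0.14 in white (adjusted p = 3.18e-06). Id1 was also called higher in brown, averaging 728 in brown day 4 against 512 in white day 4, and 382 against 214 at day 7. The day 4 call was lost without brown day 4 array 09 (adjusted p = 0.0806), and the day 7 call with the Gapdh ratio in the fit (adjusted p = 0.104). The regulators list had 1 higher and 4 lower calls for brown by day, 0 and 3 for white by day, 2 and 2 for brown minus white at day 7 and 4 and 2 at day 4, with medians of -0.29, -0.04, 0.09 and 0.20. The shares called were 35.7%, 21.4%, 28.6% and 42.9%, against 12.1%, 19%, 25.2% and 23% of all probe sets, so those for white by day and for day 7 were near the share over all.

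The 19 genes that handle actin monomers, such as cofilin, profilin and the CCT chaperonin that folds actin, had calls in both directions by day in each cell type and between cell types at each day. Gsn, the filament-severing gelsolin, rose by day in brown by 1.0 ± 0.22 (adjusted p = 0.0027) and in white by 0.81 ± 0.18 (adjusted p = 0.00332), where it was at 0.42 and not called with the Gapdh ratio in the fit (adjusted p = 0.629). Tmsb4x, the monomer-binding thymosin beta 4, was at 0.70 ± 0.21 by day in brown (adjusted p = 0.0289), a call lost with no filter on low signals (adjusted p = 0.0665) and without any 1 of arrays 05, 19, 08, 12 and 22 (adjusted p up to 0.113). Cct7, a chaperonin subunit, was at -0.69 ± 0.14 by day in brown (adjusted p = 0.00167). At day 4 the brown minus white difference of Tmsb4x was -0.60 ± 0.19 (adjusted p = 0.0242, lost at adjusted p = 0.0536 with no filter, 0.0598 without brown day 4 array 05 and 0.107 without array 19). Dstn, the actin-depolymerizing factor destrin, was lower in brown at day 4 (-0.60), while Cct3 (0.57) and Cfl1 (0.55) were higher.

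The 10 smooth muscle genes, which include Acta2 and Actg2, were mostly lower in brown than in white cultures. At day 4, 6 were lower and 0 higher in brown than in white, and at day 7, 7 were lower and 1 higher, with medians of -1.08 and -1.17. The gene higher at day 7 was Mcam, an adhesion molecule of vessel walls, at 0.56 ± 0.18 (adjusted p = 0.0280, a call lost without any 1 of brown arrays 07 and 08 and white arrays 39 and 43, at up to 0.0883), and Acta2 passed at neither day. The shares called were 60% at day 4 against 23% of all probe sets and 80% at day 7 against 25.2%. Cnn1, the smooth muscle calponin, averaged 59.2 in brown day 7, 26.5 in brown day 4, 416 in white day 7 and 224 in white day 4, a brown minus white difference of -2.88 ± 0.39 at day 7 (adjusted p = 4.75e-06) and -3.04 ± 0.37 at day 4 (adjusted p = 9.35e-07). Myh11, the smooth muscle myosin heavy chain, was lower in brown, at -2.57 ± 0.41 at day 7 (adjusted p = 3.97e-05, and at -2.17 ± 0.71 but not called, adjusted p = 0.0920, with the Gapdh ratio in the fit) and -1.90 ± 0.38 at day 4 (adjusted p = 0.000698, but 0.0935 with the floor at the 40th percentile). Mylk, the myosin light chain kinase, was lower in brown at -1.86 ± 0.13 at day 7 (adjusted p = 4.33e-11) and -2.17 ± 0.12 at day 4 (adjusted p = 4.45e-13). From the comparison by day, 4 of the 10 rose in brown cultures and 4 in white cultures. That is 40% in each, against 12.1% and 19% of all probe sets. The white calls were Actg2, Cnn1, Mcam and Myh11, and all were lost with the Gapdh ratio in the fit (adjusted p from 0.0507 for Myh11 to 0.427 for Mcam). Cnn1 was also lost with no filter (0.0861), and in brown Myh11 was lost under a floor at the 40th percentile (0.0660).

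For the difference between the changes by day in brown and white, 0 of the 81 tested genes of these lists passed by limma, 14 had an unadjusted p under 0.05, and 18 of all 8397 probe sets passed. Among them Myog passed without brown day 4 array 06, at -2.03 (adjusted p = 0.0488), so whether its change by day differed between brown and white cultures depended on 1 array.

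Markers of other cell types were summed on each array. The 13 skeletal muscle markers on the array, 8 of which passed the filter, summed to 828 to 936 in brown day 7, 981 to 1147 in brown day 4, 287 to 545 in white day 7 and 237 to 419 in white day 4. The sum was thus higher in brown at each day, as the mean of Acta1 was. In brown cultures, bright members such as Myl1 (means of 362 at day 7 and 276 at day 4) and Mylpf (145 and 163) made up much of it. Not every member ran that way. Des averaged 27.4 in brown day 7 against 75.1 in white day 7, though 53.5 against 44.6 at day 4. Cdh15 (6.27 against 13.7) and Myf6 (5.83 against 9.47), both near the floor, were also lower in brown at day 7. Myf5, a defining marker of myoblasts, was at the floor on all 24 arrays, Cdh15 was at the floor on every brown day 4 array, and Myh3 and Chrna1 were at the floor on every white array. The 8 cardiac muscle markers summed to 169 to 309, 166 to 234, 169 to 371 and 193 to 348 in the same order, with the cardiac myosin genes Myh6 and Myl7 at the floor on every array of the first 3 groups. The 8 smooth muscle and pericyte markers summed to 3746 to 6182, 2936 to 3913, 6613 to 10224 and 4530 to 8866. The 5 endothelial markers summed to 356 to 594, 208 to 399, 84.5 to 221 and 117 to 273, and the 5 macrophage markers to 507 to 641, 376 to 471, 755 to 1170 and 521 to 1448, and at day 7 neither sum overlapped between brown and white cultures. The part of muscle cells in the Acta1 and Actc1 signals was not tested.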

How the data were processed

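Biotinylated cRNA came from Trizol-extracted total RNA, per the labels' protocols. The deposited values are probe set signal intensities made by the authors with MAS5, per the submitters' processing notes, version not given in the sources used here. Subtracting mismatch signal makes low MAS5 values noisy. From these, each array was scaled to a 2% trimmed mean of 150, values under the 20th percentile (signal 8.21) were raised to it as a floor, and log2 values were used. Of 12488 probe sets, 66 controls were left out and 8397 lay above the 40th percentile of their array on at least 5 arrays. All 4 groups were fitted together with limma 3.58.1 in R 4.3.3 (20 residual degrees of freedom), with Benjamini-Hochberg adjustment over all probe sets tested. The fit was tested on simulated data.

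Gene symbols came from the platform annotation: 10855 probe sets had 1, 396 several and 1237 none. Named genes were Acta1 and Actc1, every tested probe set of the other actins, the 8 genes most like Acta1 or Actc1 over the 24 arrays and the 5 most like them in deviations from group means (taking the brightest probe set of each), up to 4 called genes with the largest change per list and comparison, and those tested regulators and markers that had a result beside them. The genes and lists were chosen with earlier results of these data known. Of the lists, 112 of 137 genes were on the array and 81 were tested, each gene counted once. Alternatives were other floors, no filter, quantile normalization, leaving out arrays, runs of array numbers as a block and the Gapdh ratio as a covariate.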

Additional observations from a re-analysis of the deposited data

Results flagged for a closer look

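Acta1 had opposite signs by day in the cell types: its mean at day 7 lay below that at day 4 in brown cultures and above it in white cultures, and the brown change by day minus the white change was -2.64 on the log2 scale. For Actc1 101029_f_at the same difference was -1.21, with brown lower and white higher at day 7. These differences were not tested, because the genes were chosen from these comparisons.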

How the results depend on the processing

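Among the differences of the Acta1 and Actc1 probe sets, 1 changed sign, that of Actc1 101028_i_at in white by day, which was -0.05 without white day 7 array 40 against 0.11 with all arrays. Leaving out each array in turn gave -1.68 to -1.36 for Acta1 in brown by day and 3.33 to 3.68 for Acta1 brown minus white at day 4. With the Gapdh ratio as a covariate, Acta1 was at 1.70 for white by day, 0.21 for brown minus white at day 7 and -3.23 for the difference in changes by day; the other actins called were 0 for white by day and 0 at day 7, the list genes called 2 and 7, and the probe sets called 37 and 274, with 5 for the difference in changes. The ratio ran from 1.09 to 1.54 in white day 7 and from 0.841 to 1.10 in white day 4; the cause was not tested. Actc1 101028_i_at, brown minus white, was at 3.71 (day 7) and 5.80 (day 4) with no floor and at 1.40 and 2.96 under a floor at the 40th percentile, by construction of the floor. With runs of array numbers as a block, Acta1 was at -1.61 ± 0.30 for brown by day and 1.29 ± 0.25 for white by day, and 3 other actin probe sets were called for brown by day and 2 for white by day. Arrays 19, 22, 45 and 51 stood alone there and added nothing to the changes by day. With no block but without arrays 45 and 51, Acta1 was likewise at 1.29 for white by day. For the difference in changes by day, 35 probe sets were called with the floor at the 40th percentile and 10 with no filter. Leaving out each array in turn, other actins called ranged from 1 to 3 for brown by day and from 0 to 1 at day 4, list genes called for the difference in changes from 0 to 1 (Myog, without brown day 4 array 06), and probe sets called from 672 (without brown day 7 array 08) to 1170 for brown by day and from 7 to 23 for the difference in changes. No array number is shared between groups, so only runs of label numbers, which the labels do not mark as batches, could serve as a block. Signal near background limits Actc1 101028_i_at in white cultures.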
